A study of Mus musculus with 2 samples.

Results

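Hematopoietic growth factors are secreted or membrane-bound proteins that keep blood cells and their precursors alive and make them divide and mature. The 10 genes described here were defined by a list of symbols, written with earlier results of these data known, namely Csf1, Il34, Csf2, Csf3, Il3, Kitl, Flt3l, Thpo, Il7, and Tslp, out of 24091 genes in the table. All 10 symbols were found, 9 of them had at least 1 sequenced fragment, and 6 had an FPKM of 1 or more in 1 or both libraries. FPKM is the number of fragments of a gene scaled to its length in kilobases and to the size of the library.

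Polyadenylated RNA was sequenced in 2 libraries from C57BL/6 mice, 1 of sham-irradiated mice and 1 of mice given pelvic irradiation, for which the labels state 7.5 Gy and 5 days. The cells came from gonadal fat removed 2 months later and dissociated with collagenase, and those that floated were cultured for 3 days. The labels call the cells primary adipocytes, and both titles also name PBS without saying what it was used for. With 1 library per condition and an unstated number of mice behind each, no test between conditions was possible, and the intervals given here are 95% intervals of counting error that leave out the variation between mice and cultures.

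In the body, fibroblasts, endothelial cells, and fat cells of the marrow supply many of these factors to the blood cells around them. CSF-1 and IL-34 share the receptor CSF1R on macrophages. GM-CSF, encoded by Csf2, and IL-3 share a common beta receptor chain, while G-CSF, encoded by Csf3, drives neutrophil production. Stem cell factor, encoded by Kitl, acts on stem cells and mast cells through KIT, FLT3 ligand acts on dendritic cell precursors, and thrombopoietin acts on platelet precursors. IL-7 and TSLP act on lymphoid and other cells through receptors that both use the IL-7 receptor alpha chain.

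The 2 most abundant members, Csf1 and Kitl, are shown here by the promoter window that RefSeq gives for mouse assembly GRCm38.p6, from 250 bases before to 50 bases after the start of the gene. They are printed 5′ to 3′ on the strand of the gene, with capitals for matches to a motif. The Csf1 window lies at chr3:107760420-107760719 on the minus strand, and the Kitl window at chr10:100015571-100015870 on the plus strand.
Csf1: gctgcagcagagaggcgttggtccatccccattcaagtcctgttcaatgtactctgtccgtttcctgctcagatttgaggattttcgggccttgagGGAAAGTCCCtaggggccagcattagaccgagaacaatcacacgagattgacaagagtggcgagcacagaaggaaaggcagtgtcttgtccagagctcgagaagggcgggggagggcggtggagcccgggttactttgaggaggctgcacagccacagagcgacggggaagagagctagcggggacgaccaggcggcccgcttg
Kitl: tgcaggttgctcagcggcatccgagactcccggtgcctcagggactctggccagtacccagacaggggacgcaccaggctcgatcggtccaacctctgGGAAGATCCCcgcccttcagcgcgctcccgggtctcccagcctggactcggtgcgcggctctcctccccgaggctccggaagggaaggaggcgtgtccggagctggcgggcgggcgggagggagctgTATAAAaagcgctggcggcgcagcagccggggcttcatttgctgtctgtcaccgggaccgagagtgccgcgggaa

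The motifs searched on both strands were the NF-kB consensus, AP-1 (TGANTCA), the TATA box (TATAAA), and the interferon response core (GAAANNGAAA). The Csf1 window held 1 match, to the NF-kB consensus. The Kitl window held 1 match to the NF-kB consensus and 1 to the TATA box, and these matches did not overlap. Of all 32851 promoter windows of this length, 8.46% held the NF-kB consensus, 13.6% the TATA box, 7.81% the AP-1 motif, and 3.44% the interferon response core. Windows were found for 6 of the 10 members, all but Csf3, Il34, Il7, and Tslp. The Flt3l window held the interferon response core, and no match was found in the windows of Csf2, Il3, and Thpo. The start that RefSeq gives Csf2 lies 232 bases upstream of its start in the GENCODE annotation.

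The RNAs of several growth factors carry copies of ATTTA, written here in DNA letters, after the stop codon, a sequence that proteins such as tristetraprolin bind to shorten the life of the RNA. In the GENCODE transcript with the longest stretch after the stop codon, Csf2 held 9 copies in 317 bases and Csf3 held 6 in 669 bases, with overlapping copies counted. Kitl held 14 copies in 4435 bases, Il7 held 6 in 3846, Csf1 held 4 in 2111, Tslp held 2 in 686, and Il34 and Il3 held 1 each. Flt3l and Thpo held 0. Thus 4 of the 10 members held at least 5 copies, as did 21.6% of 21007 protein-coding genes, and the median of the latter was 1.35 copies per kb. Csf2, at 28.4 copies per kb, and Csf3, at 8.97, were denser than Kitl, at 3.16. The 30 bases with the most copies are shown for Csf2 and Csf3, because their differences between the libraries were opposite in sign. They are on the strand of the gene in GRCm38, at chr11:54247329-54247358 and chr11:98702984-98703013, with capitals for ATTTA.
Csf2: tttttaaatATTTATTTATTTATTTATTTA
Csf3: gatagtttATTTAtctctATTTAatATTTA

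The sham library held 30600000 fragments and the irradiated library 35000000. Most markers of mature adipocytes were low, which goes against the label, while 2 were abundant. Adipoq, which encodes the fat cell hormone adiponectin, had 5 fragments in the sham and 10 in the irradiated library, and Plin1, which coats lipid droplets, had 26 and 56. Of 12 adipocyte markers, 2 reached an FPKM of 1 in 1 or both libraries. They were the fatty acid transporter Cd36 at 118 and 161 and the fatty acid binding protein Fabp4 at 96.9 in both libraries, named after their values were seen. An FPKM of 1 was also reached by all 12 fibroblast and progenitor markers in 1 or both libraries, with Col1a1 at an FPKM of 1940 and 1430. Fewer cells of a type and less RNA per cell cannot be told apart in such libraries.

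Csf1 was by far the most abundant member. Its FPKM was 393 in the sham library and 498 in the irradiated library, which put it at rank 109 and rank 84 of all 24091 genes. It made up 94.3% and 94.5% of the summed FPKM of the 10 members. Kitl followed at 15.9 and 18.9. The Csf1 level was 24.7 times that of Kitl in the sham library (counting interval 23.8 to 25.7) and 26.3 times in the irradiated library (25.5 to 27.2).

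The other members were at or below an FPKM of 5 in both libraries. In the sham library their order was Tslp, Csf3, Il34, Flt3l, Il7, Csf2, Thpo, and Il3. In that order, the counting interval of the ratio between neighbors held equality for Tslp and Csf3, for Il34 and Flt3l, for Csf2 and Thpo, and for Thpo and Il3, which had 1 and 0 fragments. In the irradiated library the order was Tslp, Il34, Csf3, Flt3l, Csf2, and Il7, with no fragments for Il3 and Thpo. There the interval held equality for Il34 and Csf3, for Flt3l and Csf2, and for Csf2 and Il7.

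**Figure D1:**
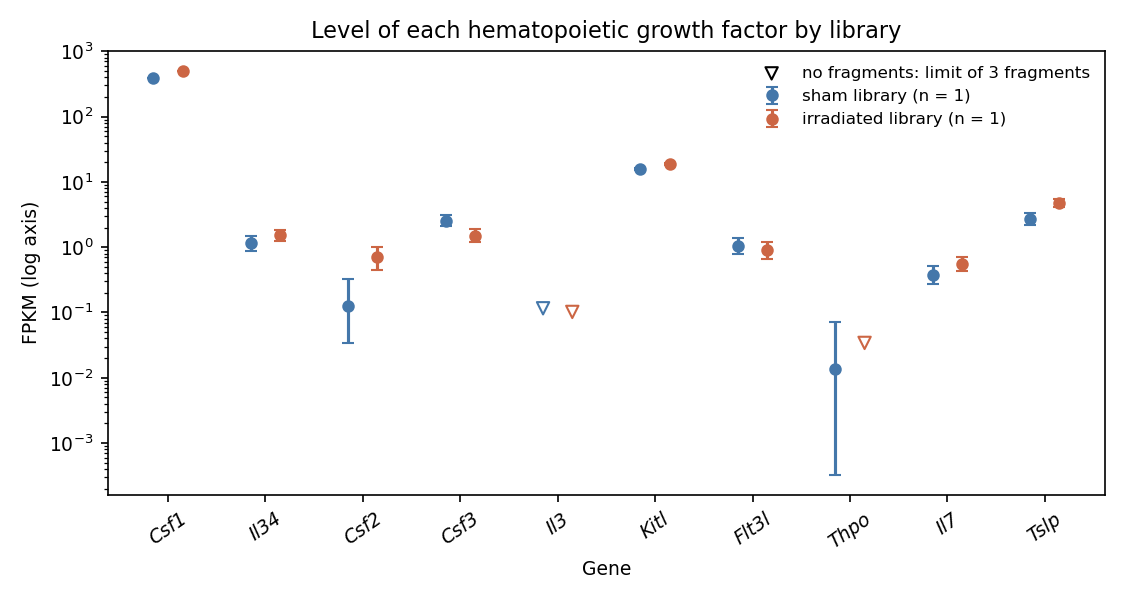
Level of each growth factor gene (x axis) as FPKM on a log axis (y axis) in the sham and the irradiated library, with the exact 95% Poisson interval of its fragments as the bar and an open triangle at the limit of 3 fragments where a library had none. Csf1 sits at 393 and 498 and Kitl at 15.9 and 18.9, while Csf2 is the member whose points lie farthest apart, at 0.127 and 0.696.

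Between the libraries, Csf1, Csf2, Kitl, Il7, and Tslp were higher in the irradiated library beyond counting error, Csf3 was lower, and Il34, Flt3l, and Thpo had intervals that held 0. The call of Il7 was lost with 99% intervals (log2 ratio -0.17 to 1.35) and with intervals widened by 0.01 for rounding. Of the 9 members with fragments, 5 had an interval above 0, compared with 17.9% of the 17312 genes that had fragments, and 1 had an interval below 0, compared with 12.2%. Such intervals are narrow for genes with many fragments, so a small difference passes them more easily in Csf1 than in Csf2. Of the 6 members with an FPKM of 1 or more, 0 differed by 1 or more on the log2(FPKM + 0.1) scale, compared with 1.16% of the 11253 genes that met the same minimum. Their median difference was 0.295 (range -0.72 to 0.80), where that of the 11253 genes was 0.02.

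Among the factors for macrophages, Csf1, on chromosome 3 from 107741048 to 107760469 in mm10, had a log2 value of 8.62 in the sham and 8.96 in the irradiated library, a difference of 0.34. The ratio of its fragments per library total, irradiated to sham, was 1.27 (counting interval 1.25 to 1.28), and all ratios between the libraries below are of this kind. Il34, which encodes the other ligand of CSF1R, had an FPKM of 1.15 on 65 fragments and of 1.52 on 99 fragments, respectively. Its difference of 0.38 was close in size to that of Csf1, but its ratio of 1.33 had an interval from 0.964 to 1.85, so a difference was not detectable at this depth. The level of Csf1 was 343 times that of Il34 in the sham library (269 to 444) and 327 times in the irradiated library (268 to 401).

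Csf2 showed the largest difference of the 10 members. It had 4 fragments in the sham library, an FPKM of 0.127, and 25 in the irradiated library, an FPKM of 0.696. The difference of the deposited values was 1.81, and the ratio of its fragments per total was 5.46 (1.89 to 21.6). Csf2 is thus the only member that differed by at least 1 when no minimum FPKM is asked, which 1.11% of all 24091 genes also did in the same direction. Its FPKM stayed under 1 in both libraries, and the added 0.1 shrinks the deposited difference of so low a gene. With log2(FPKM + 1) the difference was 0.589, under the threshold of 1.

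Csf3 was the only member that was lower in the irradiated library beyond counting error. The gene lies on chromosome 11 from 98701313 to 98703629. It had an FPKM of 2.56 on 106 fragments in the sham library and of 1.51 on 72 fragments in the irradiated library. The difference was -0.72, and the ratio was 0.594 (0.434 to 0.808). The 2 colony-stimulating factors of granulocytes thus differed in opposite directions, and the level of Csf3 was 20.2 times that of Csf2 in the sham library (7.62 to 75.1) and 2.18 times in the irradiated library (1.37 to 3.59).

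Il3 is encoded 15.2 kb from Csf2 on chromosome 11, at 54265085 to 54267279 next to 54247270 to 54249899. No fragment of Il3 was found in either library, which allows an FPKM of up to 0.116 in the sham and 0.102 in the irradiated library.

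Of the factors for stem and precursor cells, Kitl, on chromosome 10 from 100015824 to 100100412, had a log2 value of 4.00 in the sham and 4.25 in the irradiated library. The difference was 0.25, and the ratio was 1.19 (1.13 to 1.25). Flt3l had 47 and 46 fragments, an FPKM of 1.06 and 0.90, and its ratio of 0.855 had an interval from 0.557 to 1.31. Flt3l reached an FPKM of 1 only in the sham library. Thpo, which is made mainly in the liver, had 1 fragment in the sham library and 0 in the irradiated library, so no fold is given, and fragments of Chrd, which overlaps it on the other strand, were also few (17 and 22).

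The factors for lymphoid cells were both higher in the irradiated library. Tslp, which epithelial and stromal cells release as an alarm signal, is encoded on chromosome 18 between 32815383 and 32819799. It had an FPKM of 2.69 on 93 fragments in the sham library and of 4.76 on 188 fragments in the irradiated library. The difference was 0.80, and the ratio was 1.77 (1.37 to 2.29). The gene 4930455D15Rik, which spans Tslp on the opposite strand, had 0 and 2 fragments. Il7 had 41 and 70 fragments, an FPKM of 0.373 and 0.56, and its ratio of 1.49 had an interval whose upper end was 2.25 and whose lower end lay at the edge of no difference. Tslp was 7.21 times the level of Il7 in the sham library (4.94 to 10.7) and 8.50 times in the irradiated library (6.45 to 11.4).

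**Figure D2:**
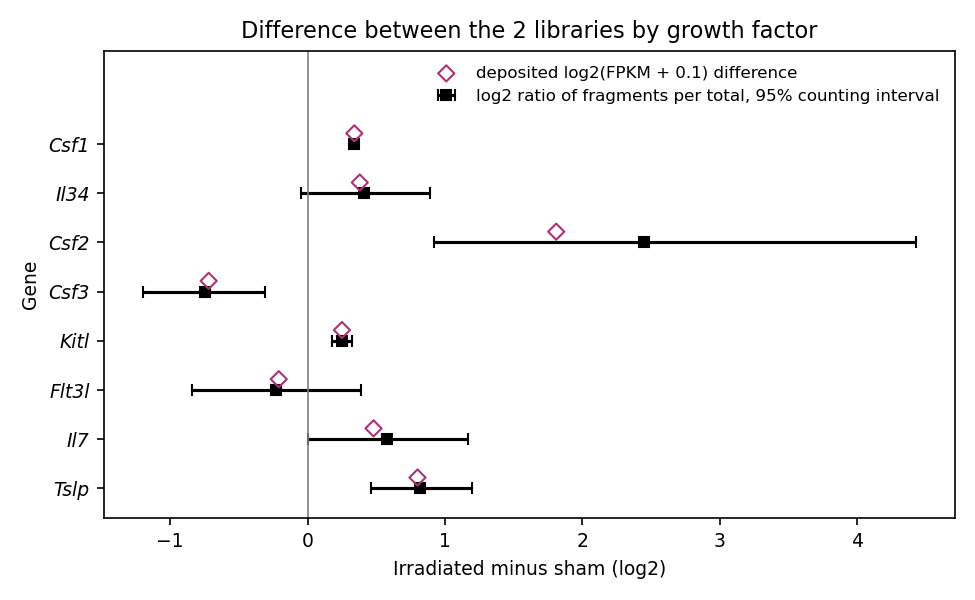
Difference between the irradiated and the sham library (x axis, log2) for each growth factor with fragments in both libraries (y axis), as the log2 ratio of fragments per library total with its 95% counting interval (squares, bars) and as the deposited difference (open diamonds). Csf2 lies farthest to the right at 2.45 (0.92 to 4.43) against a deposited 1.81, Csf3 is the only gene whose bar lies wholly below 0 (-1.20 to -0.31), and the bars of Il34 and Flt3l cross 0.

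The receptors show which of these ligands had a receptor RNA in the same culture. Of 13 receptor genes described, 10 reached an FPKM of 1, of which 8 were higher and 2 lower in the irradiated library. Their median difference was 0.285, compared with 0.02 for all genes that met this minimum. Of the latter, 6020 of 11253 were higher and 4947 lower. Over all 13, the counting interval lay above 0 for 7 and below 0 for 2, beside 17.9% and 12.2% of all genes with fragments.

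Csf1r, the receptor of CSF-1 and IL-34, had an FPKM of 10.6 in the sham and 13.8 in the irradiated library, a ratio of 1.30. Its difference was 0.38 on the log2(FPKM + 0.1) scale, beside 0.34 for Csf1. The further binding partners of IL-34, Sdc1 and Ptprz1, lay far apart in level. Sdc1 had an FPKM of 64.8 and 70.9, and Ptprz1 had 0.0661 and 0.0604.

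The receptor chains for GM-CSF and IL-3 were present in both libraries. Csf2ra, the chain specific for GM-CSF, had an FPKM of 4.01 and 4.82, and Il3ra, the chain specific for IL-3, had 5.72 and 6.49 with an interval of the ratio that held equality. Csf2rb differed by 0.50 and Csf2rb2 by 0.56, and since these beta chains are near-identical copies, the counting could have split their fragments. The receptor of G-CSF, Csf3r, was low, with 42 and 69 fragments and an FPKM of 0.341 and 0.49.

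Kit, the receptor of stem cell factor, was lower in the irradiated library, with an FPKM of 2.00 and 1.5 and a ratio of 0.752, while Kitl was higher. Flt3, the receptor of FLT3 ligand, had 12 and 5 fragments. Il7r, the chain that the receptors of IL-7 and TSLP share, had an FPKM of 4.31 and 6.22, a difference of 0.52. Crlf2, the TSLP-specific chain, had 4.19 and 5.21, and Il2rg, the common gamma chain that completes the IL-7 receptor, had 6.44 and 5.40, a difference of -0.25.

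**Figure D3:**
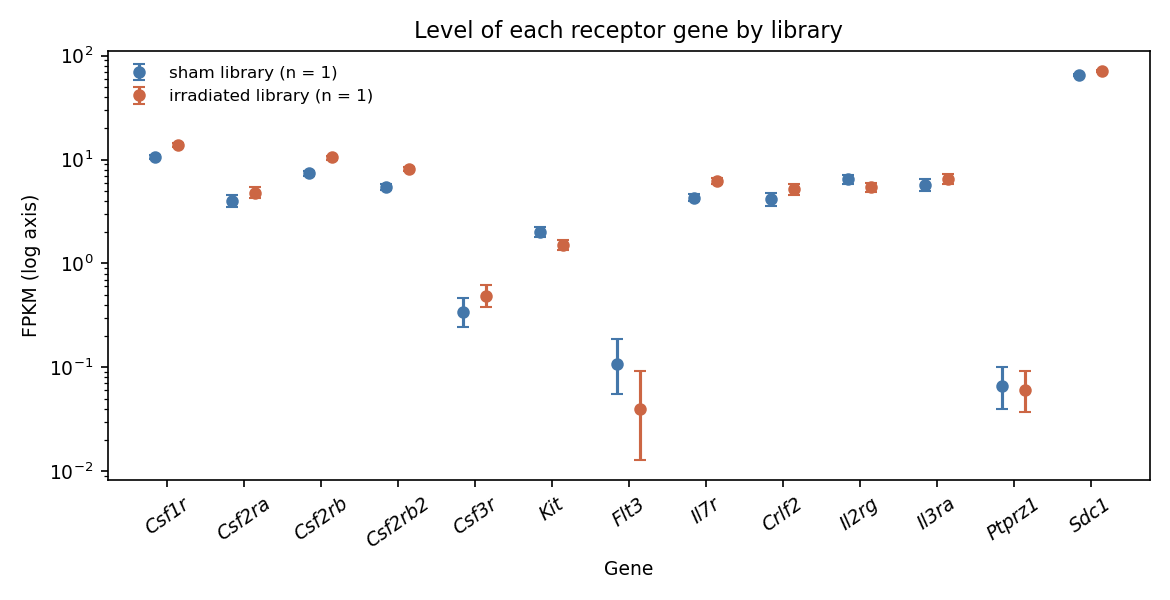
Level of each receptor gene (x axis) as FPKM on a log axis (y axis) in the sham and the irradiated library, with the exact 95% Poisson interval of its fragments as the bar. Sdc1 is highest at 64.8 and 70.9, most other receptors lie between 1 and 20, and Csf3r, Flt3, and Ptprz1 lie below 1 in both libraries.

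Markers of the cells that respond to these factors differed in both directions between the libraries. Of 13 macrophage markers, 11 reached an FPKM of 1, with 9 higher and 2 lower in the irradiated library, a median difference of 0.28, and a summed FPKM of 611 and 649. Over the 13 genes, 7 counting intervals lay above 0 and 1 below, beside 17.9% and 12.2% of all genes with fragments. Examples were C1qa, a complement protein of macrophages, at 0.80 and the lysozyme gene Lyz2, named after its value was seen, at -0.11. With an FPKM of 443 and 410, Lyz2 made up most of the summed FPKM in each library. Csf1r is itself expressed by macrophages, and the part of these markers in the difference of Csf1r or Csf1 was not tested.

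Mast cells depend on stem cell factor and carry KIT. The 5 of 7 mast cell markers that reached an FPKM of 1 were lower in the irradiated library, with a median difference of -0.74 and a summed FPKM of the 7 genes of 18.3 and 10.5. Over the 7 genes, 4 counting intervals lay below 0 and 0 above, beside 12.2% and 17.9% of all genes with fragments. Cpa3, a protease of mast cell granules, had 145 and 97 fragments, a ratio of 0.585. These markers were thus lower together with Kit while Kitl was higher, and their part in the difference of Kit was not tested. Granulocyte markers were near the floor, with a summed FPKM of 6.82 and 4.94 over 9 genes and with Ly6g and Cxcr2, which define neutrophils, at 0 fragments in both libraries. S100a8, an alarm protein of neutrophils, had 25 and 20 fragments, with an interval that held 0. The intervals of 4 of the 9 genes lay below 0, beside 12.2% of all genes with fragments, and 0 lay above. These were Mpo with 40 and 16 fragments, Camp with 35 and 21, Elane with 6 and 0, and S100a9 with 5 and 0, all named after their values were seen. Retnlg, with 33 and 49 fragments, and Ltf, with 0 and 2, also named so, went the other way with intervals that held 0. The 4 genes with intervals below 0 were lower in the same library as Csf3, and the part of granulocyte markers in its difference was not tested.

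Other markers also differed between the cultures. Of 8 mesothelial markers, 7 reached an FPKM of 1, with 6 higher and 1 lower in the irradiated library. Of these 7, 3 reached that level in the sham library and all 7 in the irradiated library. Higher by at least 1 were 4 of the 7, beside 89 of the 11253 genes that met this minimum. These 4, Msln, Upk3b, Krt19, and Krt18, met the minimum only through the irradiated library, where they were higher. Over the 8 genes, 6 counting intervals lay above 0 and 1 below, beside 17.9% and 12.2% of all genes with fragments. Their summed FPKM was 33.7 and 47.1, and Msln had 34 and 202 fragments. Wt1, the most abundant of them and the lower 1, named after its value was seen, had an FPKM of 20.4 and 18.7. The 12 fibroblast and progenitor markers had a summed FPKM of 4900 and 4070, with 5 higher and 7 lower. Their counting intervals lay above 0 for 3 and below 0 for 6, beside 17.9% and 12.2% of all genes with fragments. Such intervals are narrow for markers as abundant as these collagens. The collagen genes among them, Col1a1, Col1a2, and Col3a1, were the highest of the 12 in the sham library and differed by -0.44, -0.43, and -0.33. Fn1 differed by 0.20 and Dcn by 0.01, and all of these but Col1a1 were named after their values were seen. All 8 endothelial markers reached an FPKM of 1, with 6 higher and 2 lower in the irradiated library. Their counting intervals lay above 0 for 4 and below 0 for 0, beside 17.9% and 12.2% of all genes with fragments. Pecam1, an adhesion protein of endothelial cells, differed by 0.17. Cdh5, the most abundant of the 8 and named after its value was seen, differed by -0.02. None of these markers was set against the level of a growth factor, and their part in the differences of Csf1, Csf2, Kitl, and Tslp was not tested.

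Of 21 other factors with a role in the blood-forming niche, 15 reached an FPKM of 1, with 8 higher, 6 lower, and 1 equal and a median difference of 0.08. Over the 21 genes, 6 counting intervals lay above 0 and 5 below, beside 17.9% and 12.2% of all genes with fragments. The highest was Il11, a cytokine that supports platelet precursors, with an FPKM of 4.19 and 18.4, a difference of 2.11. Spp1, the matrix protein osteopontin, followed at 0.71. The lowest were Cxcl12, the chemokine that holds stem cells in the marrow, at -0.75, with an FPKM of 131 and 77.6, and Angpt1, a ligand of the endothelial receptor TIE2, at -0.38. Cxcl12 and Kitl, which in marrow are made by the same stromal cells, differed in opposite directions between these libraries.

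Genes that act behind the receptors were divided. Of 18 signalling genes, 17 reached an FPKM of 1, with 10 higher and 7 lower and a median difference of 0.10. Of all 11253 genes that met this minimum, 6020 were higher and 4947 lower. Over the 18 genes, 7 counting intervals lay above 0 and 7 below, beside 17.9% and 12.2% of all genes with fragments. Cish, a feedback inhibitor induced by STAT5, was highest at 0.60, followed by Lyn, a kinase of the SRC family, at 0.23. Cish was low, with an FPKM of 0.729 and 1.16, and met the minimum only through the irradiated library, where it was higher. Jak2, the kinase that acts behind the receptors of GM-CSF and IL-3, had an FPKM of 78.1 and 54.1, a difference of -0.53, and Socs1, a feedback inhibitor of JAK kinases, had -0.55.

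Genes that act in the induction or the decay of cytokine RNAs had a median at no difference, with genes on both sides of it. All 17 reached an FPKM of 1, with 8 higher, 8 lower, and 1 equal. Their median difference was 0.00, with a range from -0.31 to 0.19. The counting interval lay above 0 for 3 and below 0 for 7, beside 17.9% and 12.2% of all genes with fragments. The extremes were Il1r1, the receptor of IL-1, at -0.31 and the endotoxin receptor Tlr4 at 0.19, followed by the transcription factor Cebpd at -0.28 and the NF-kB feedback inhibitor Tnfaip3 at 0.12. Zfp36, which encodes tristetraprolin and was named after its value was seen, had an FPKM of 20.2 and 21.2. The part of these genes in the differences of Csf2 (1.81) and Csf3 (-0.72) was not tested.

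CSF-1 and stem cell factor exist as membrane-bound forms that proteases release from the cell. All 9 genes of such proteases and related enzymes and inhibitors reached an FPKM of 1, with a median difference of 0.04. Timp3, an inhibitor of metalloproteases, differed most, with an FPKM of 92.3 and 180.0, a difference of 0.96, followed by Pcsk5, a proprotein convertase, at 0.24. Mmp9, a gelatinase known to release stem cell factor, was lowest at -0.66, with 62.6 and 39.6, and Adam17, which cleaves CSF-1, had -0.14.

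**Figure D4:**
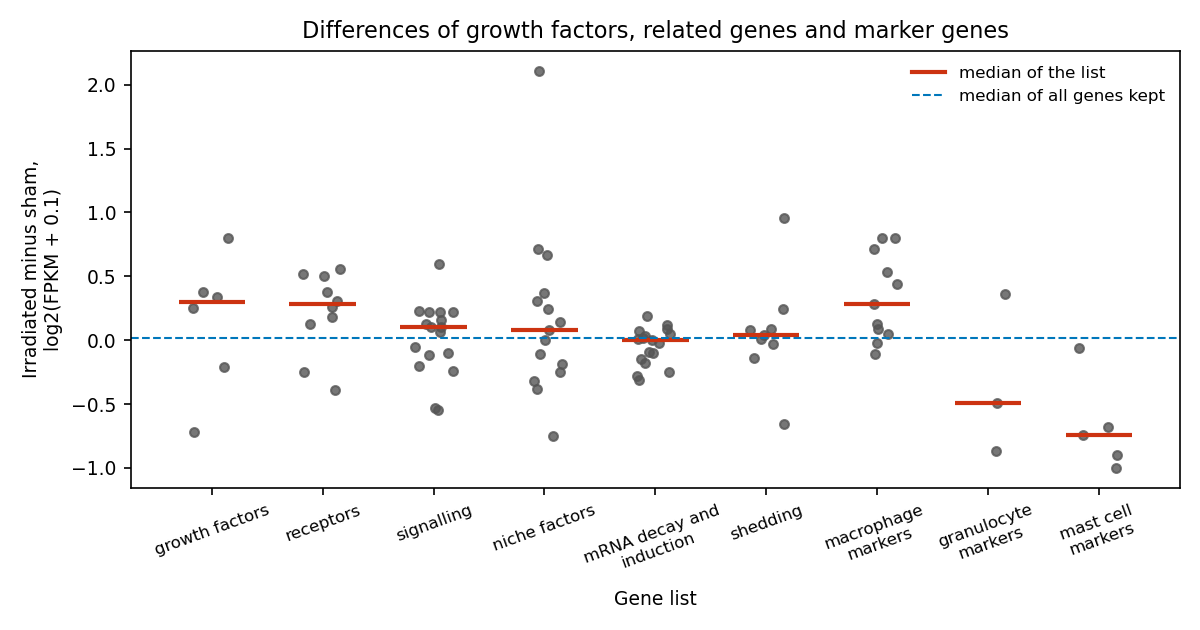
Difference of each gene whose FPKM reached 1 in either library (y axis, log2(FPKM + 0.1), irradiated minus sham) by gene list (x axis), with the median of each list as a red bar and the median of all such genes, 0.02, as a dashed line. The growth factors and their receptors have medians of 0.295 and 0.285, the genes of mRNA decay and induction lie around 0, and the mast cell markers have a median of -0.74.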

How the data were processed

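The deposited values are log2(FPKM + 0.1) as the authors calculated it, given to 2 decimals beside gene coordinates and lengths. The submitters' processing notes name mm10. The sources used here give no aligner, counting tool, strand setting, or filter. Groups were taken from the treatment labels.

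The FPKM was recovered as 2 raised to the deposited value, minus 0.1. Library totals were found as those that made FPKM times length whole for genes with few fragments, and all 3281 (sham) and 3422 (irradiated) such genes lay within 0.12 of a whole number. Rounding makes the fragments of abundant genes approximate. The procedure was tested on simulated data. Intervals are exact 95% intervals, Clopper-Pearson for ratios and Poisson for levels. They cover counting error only, since PCR copies are not independent molecules. For a count of 0 the limit drawn is 3 fragments, which lies below the upper end of its Poisson interval. Differences were calculated on the log2(FPKM + 0.1) scale as irradiated minus sham, which understates those of low genes.

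The members and gene lists were chosen with earlier results of these data known. The genes named were all members, the receptors except 1 that is not reported here, the 2 highest and 2 lowest differences of each other related list, and a few markers. The alternatives were other pseudocounts, minimums, scalings, thresholds, and confidence levels. Promoter sequences and transcripts were taken from RefSeq and GENCODE. Calculations were run in Python 3.11.15 with SciPy 1.17.1, pandas 2.3.3, and numpy 2.4.6, and plots in matplotlib 3.10.9.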

Additional observations from a re-analysis of the deposited data

How the results depend on the processing

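No member whose counting interval excluded 0 changed direction, but neither another pseudocount nor shifts of at most 0.02 could have turned these differences around. The median differences of the members and of the 5 related lists stayed within their 95% ranges, which take genes as units. For the members that range runs from the lowest to the highest difference, -0.72 to 0.80, so their median could hardly leave it. A minimum FPKM of 5 left 2 members, Csf1 and Kitl, and so gave no median for them. No paired analysis was possible because there was 1 library for each condition, so leaving out a replicate was not an option either. The count of members that differed by at least 1 was 0 in each direction. It became 1 higher (Csf2) without a minimum FPKM, and 1 higher (Tslp) and 1 lower (Csf3) with a threshold of 0.5, by construction. Csf2 differed by 0.589 with log2(FPKM + 1). Other scalings shifted all differences by at most 0.02 in size, which put Csf1 at 0.32. With 99% intervals, and with intervals widened by 0.01 for rounding, an alternative chosen after seeing the data, 4 members lay above 0 instead of 5, since Il7 dropped out. Depth limits the members with few fragments, among them Csf2, Il7, Flt3l, Thpo, and Il3.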

Other observations

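Lymphoid markers, whose cells respond to IL-7 and TSLP, were near the floor in both libraries. These values, named after they were seen, have no replicate check. Of 11 such genes, 2 reached an FPKM of 1, Gata3, with 1.30 in the sham and 1.12 in the irradiated library, and Il1rl1, the receptor of IL-33, with 7.52 and 10.4. The B cell gene Cd79a had 29 and 8 fragments and the T cell gene Cd3d had 15 and 4. Of 7 dendritic cell markers, 2 reached an FPKM of 1 and both were lower in the irradiated library, with intervals that held 0. They were Itgax, with 2.36 in the sham and 2.35 in the irradiated library, and Ccr7, with 1.48 and 1.15. Xcr1 and Clec9a, which mark a class of these cells that depends on FLT3 ligand, had 0 and 1 fragments each.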
